A study of Mus musculus with 24 samples.

Results

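Transcript levels of monocyte-attracting CC chemokines and receptors in unwounded and injured skin were described for 10 genes of 18368 in the FPKM table of this series. They were the chemokine ligands Ccl2, Ccl3, Ccl4, Ccl6, Ccl7, Ccl8, Ccl9 and Ccl12, and the receptors Ccr1 and Ccr2. Entry of monocytes into the skin was not measured. The genes were chosen by symbol and all 10 were found. RNA came from 24 libraries of CD1 mouse skin, an outbred strain, aged 7 weeks and in telogen (the resting phase of the hair cycle). Each of 12 mice carried punch wounds of 2 mm at a single site, with 1 wound on the cheek or 2 on the abdomen or back. After 3 days the wound and adjacent healthy skin of the same mouse were taken with a 2 mm punch, giving 4 unwounded and 4 wound libraries for each of abdomen, back and cheek. The unwounded samples therefore came from wounded animals, and mice that share a number at different sites are different mice. Neither the choice between the pair of wounds nor any pooling of them is given in the sources used here. Each punch holds whole skin, so that fewer cells of a type and less RNA per cell cannot be told apart.

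CC chemokines are small secreted proteins that bind G protein-coupled receptors on leukocytes and direct their migration. Ccr2 and its ligands Ccl2, Ccl7 and Ccl12, the monocyte chemoattractant proteins, are known for bringing inflammatory monocytes out of the bone marrow and into damaged tissue, where they become macrophages. Ccr1, present on monocytes, macrophages and neutrophils, is bound by Ccl3, Ccl6, Ccl7 and Ccl9. Ccl8 belongs to the monocyte chemoattractant family by sequence, and in the mouse it is a known agonist of Ccr8.

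The 8 ligand genes lie in a pair of groups on chromosome 11 (GRCm38, GENCODE M21). Ccl2 (chr11:82035571-82037453), Ccl7 (chr11:82045712-82047525), Ccl12 (chr11:82101845-82103400) and Ccl8 (chr11:82115185-82116799) all lie on the plus strand within 81229 bases. Ccl9 (chr11:83572919-83578636), Ccl6 (chr11:83587882-83593087) and Ccl3 (chr11:83647844-83649355) lie on the minus strand, and Ccl4 (chr11:83662584-83664683) on the plus strand, within 91765 bases. Only 8258 bases separate Ccl2 from Ccl7, and 11784 bases separate Ccl12 from Ccl8. In the other group 9245 bases separate Ccl9 from Ccl6, and 13228 bases separate Ccl3 from Ccl4. The receptor genes Ccr1 (chr9:123962124-123968692, minus strand) and Ccr2 (chr9:124101950-124113557, plus strand) are 133257 bases apart on chromosome 9. Ccl2 overlaps Gm17268 and Ccl6 overlaps E230016K23Rik on the opposite strand, and because the strandedness of the libraries is not given in the sources used here, reads of these partners cannot be told apart. No run of 50 bases was shared with transcripts of another gene in 8 of the 10 genes. In Ccr2, 3.73% of such runs were shared with another gene, and in Ccl9 2.0% were shared with many other genes, so that reads from these stretches are of uncertain origin.

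RefSeq promoter sequences (GRCm38.p6) were matched for 7 of the 10 genes, namely Ccl3, Ccl6, Ccl8, Ccl9, Ccl12, Ccr1 and Ccr2. The 250 bases before the start are printed for 4 ligands: Ccl3, which rose most of these 7, Ccl8, the most abundant, its neighbour Ccl12, and Ccl9, which held the most motif matches. Capitals mark matches on either strand to TATAAA (the TATA box), to TGANTCA (the AP-1 motif) or to the kappaB motif, and TTCNNNGAA (the STAT motif) was searched as well.
Ccl3 (chr11:83649379-83649628, minus strand): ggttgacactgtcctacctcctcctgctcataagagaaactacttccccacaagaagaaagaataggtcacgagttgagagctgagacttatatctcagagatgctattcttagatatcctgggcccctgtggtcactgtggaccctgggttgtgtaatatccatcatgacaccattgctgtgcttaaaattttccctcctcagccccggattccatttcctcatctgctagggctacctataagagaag
Ccl8 (chr11:82114935-82115184, plus strand): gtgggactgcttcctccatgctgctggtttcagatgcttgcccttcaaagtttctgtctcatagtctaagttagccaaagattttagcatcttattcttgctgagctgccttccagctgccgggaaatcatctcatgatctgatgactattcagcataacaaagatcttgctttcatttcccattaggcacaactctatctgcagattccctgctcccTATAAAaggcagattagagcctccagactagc
Ccl12 (chr11:82101595-82101844, plus strand): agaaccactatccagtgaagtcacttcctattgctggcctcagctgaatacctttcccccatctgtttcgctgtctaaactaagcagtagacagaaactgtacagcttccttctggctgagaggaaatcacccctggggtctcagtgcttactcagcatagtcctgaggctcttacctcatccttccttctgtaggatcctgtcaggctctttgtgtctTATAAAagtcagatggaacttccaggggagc
Ccl9 (chr11:83578637-83578886, minus strand): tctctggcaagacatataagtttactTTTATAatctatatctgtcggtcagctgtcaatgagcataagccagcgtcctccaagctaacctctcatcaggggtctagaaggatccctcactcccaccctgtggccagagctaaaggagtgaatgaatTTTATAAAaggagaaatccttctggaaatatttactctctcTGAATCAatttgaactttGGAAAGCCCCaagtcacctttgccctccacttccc
The TATA box match began 32 bases before the start in Ccl8 and 31 bases before it in Ccl12, while Ccl9 had matches at 224, 94 and 92 bases, the last of these sharing bases with the match at 94. Ccl9 also held an AP-1 match at 53 bases and a kappaB match at 35 bases. A kappaB match was found in Ccr1 at 74 bases. Among 32851 mouse promoters of this length, 12.4% held TATAAA, 7.25% the kappaB motif, 6.75% the AP-1 motif and 7.02% the STAT motif. None of these letter strings was present in the Ccl3 window, and no STAT match was found in any of the 7. These matches are descriptions of sequence only.

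Levels are given in FPKM, counts of fragments scaled for transcript length and for the number of mapped fragments in the library, so that levels of different genes can be set side by side. Summed over genes, FPKM ranged from 490830 to 561753 in unwounded and from 532586 to 608888 in wound libraries. The number of reads behind each value is unknown. The libraries held the transcripts of skin: 7 keratinocyte genes summed to between 5900 and 18001 FPKM, and 7 fibroblast genes to between 5972 and 23078 FPKM. Skeletal muscle genes varied widely in unwounded abdomen, from 507 to 15401 summed FPKM, against 11884 to 24079 in unwounded back and cheek.

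In homeostasis the 10 genes spanned more than 3 orders of magnitude. Over the 12 unwounded libraries the mean was highest for Ccl8, at 545 FPKM, followed by Ccl6 at 84.6 and Ccl9 at 22.4 FPKM. Ccr2 (12.1 FPKM), Ccl7 (8.15), Ccl12 (7.89) and Ccl2 (6.75) formed a middle group whose libraries overlapped. Ccr1 had 2.64 FPKM, and Ccl3 and Ccl4 were near the lower end of detection at 0.57 and 0.27 FPKM. In wounds the order was Ccl8 (973 FPKM), Ccl6 (206), Ccl3 (103), Ccl4 (88.7), Ccl9 (53.7), Ccl2 (51.5), Ccl7 (50.4), Ccr2 (41.0), Ccl12 (25.1) and Ccr1 (23.0). Ccl3 and Ccl4 thus moved from the bottom of the order to the third and the fourth place, whereas Ccl8 and Ccl6 stayed at the top. In wounds only the libraries of Ccl8 lay apart from those of the next gene, and all other neighbours in this order overlapped, Ccl6 with Ccl3 and Ccl4 with Ccl9 among them. In unwounded skin Ccl6 was apart from Ccl9 and Ccr1 from Ccl3, and the other neighbours overlapped.

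**Figure D1:**
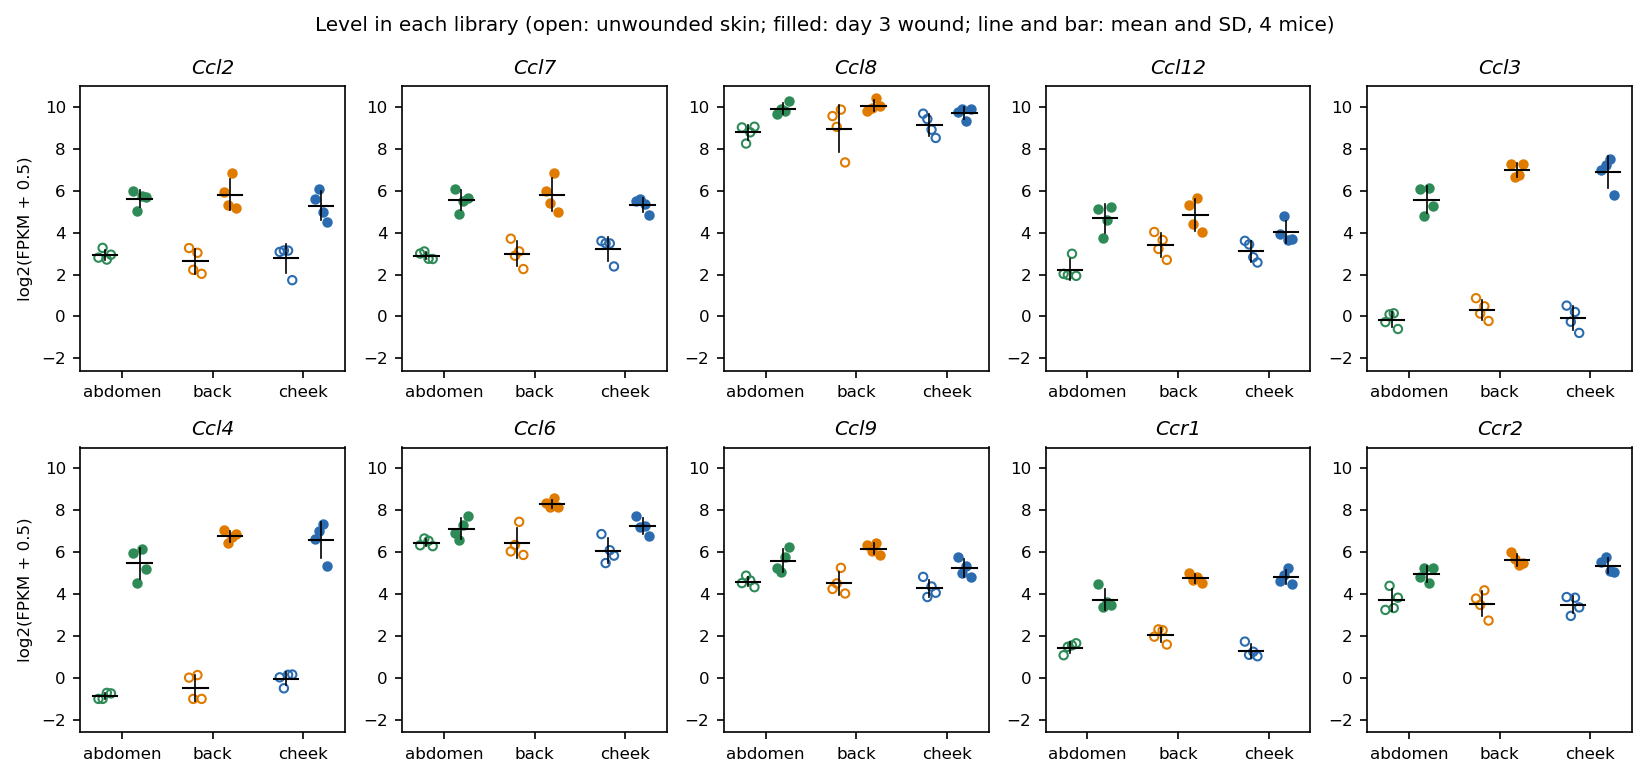
Level of each gene in all 24 libraries, as log2(FPKM + 0.5) on the vertical axis, by site. Open points are unwounded skin and filled points day 3 wounds of the same 4 mice at each site, with the mean (line) and SD (bar). The wound points of Ccl3 and Ccl4 stand far above the unwounded points at every site. Wound and unwounded points overlap for Ccl8 at the back and cheek, Ccl6 at the abdomen and cheek, and Ccl9 at the cheek.

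All 10 genes had higher mean levels in wounds than in unwounded skin at all 3 sites, and 9 of the 10 passed the test at 1 site or more. The wound of each mouse was compared with its own unwounded skin by limma on log2(FPKM + 0.5), with a term for each mouse, and a gene was called at an adjusted p under 0.001. At the abdomen 6 of the 10 genes were called higher, against 3.92% of the 14423 genes tested. At the back 8 of 10 were called higher, against 10% of all genes, and at the cheek 6 of 10, against 6.50%. None was called lower, where 1.04%, 4.37% and 2.19% of all genes were called lower at abdomen, back and cheek. Median log2 fold changes of the 10 genes were 2.37, 2.41 and 1.97 at the abdomen, back and cheek, beside -0.01, 0.07 and 0.01 for all genes tested. Ccl2, Ccl3, Ccl4, Ccl7 and Ccr1 were called at all 3 sites, Ccr2 at back and cheek, Ccl6 and Ccl9 at the back, Ccl12 at the abdomen, and Ccl8 at no site. Within mice, 119 of the 120 differences were above 0, and the single fall was that of Ccl6 in abdomen mouse 2. In separate fits of the 8 libraries of a site, the abdomen count fell from 6 to 2, with Ccl3 and Ccl4 remaining.

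**Figure D2:**
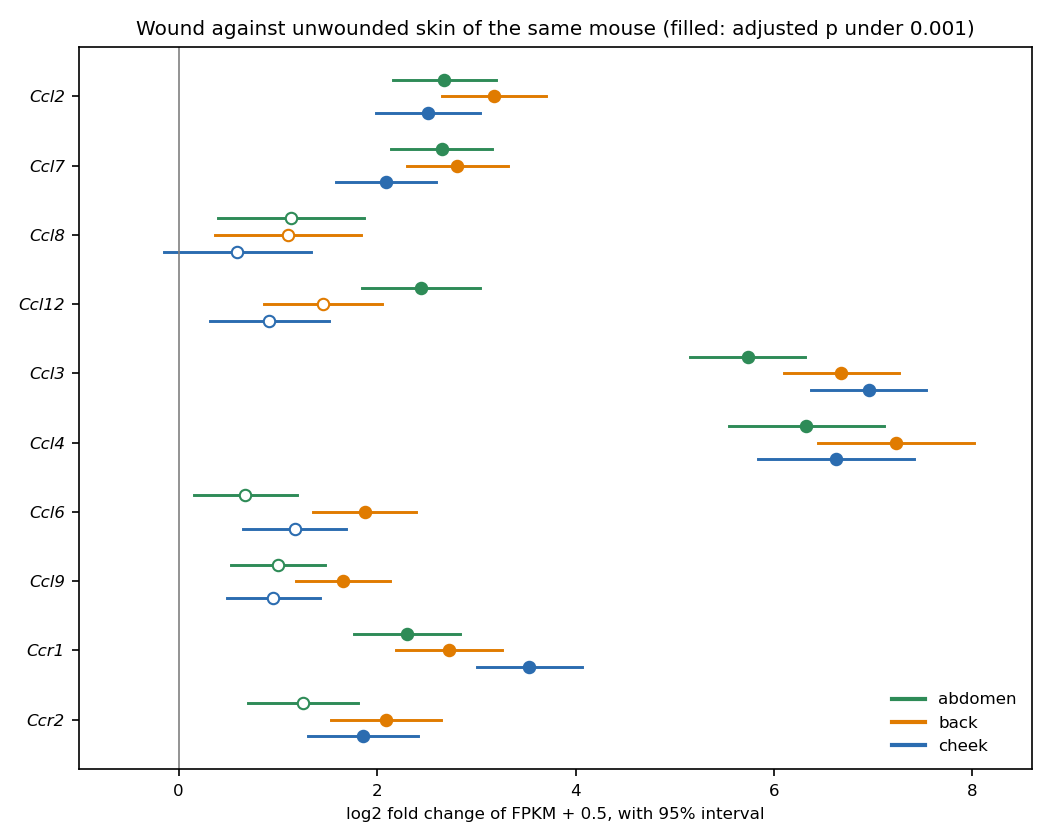
Log2 fold change of FPKM + 0.5 in wounds against unwounded skin of the same mouse (horizontal axis), with the 95% interval, for each gene and site. Filled points passed an adjusted p under 0.001. Ccl3 and Ccl4 lie between 5.73 and 7.23, the other 8 genes between 0.59 and 3.54, and only the interval of Ccl8 in the cheek reaches 0.

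Ccl3 and Ccl4, neighbouring genes for the macrophage inflammatory proteins, rose most. In unwounded skin Ccl3 had 0.33, 0.57, 0.61 and 0.16 FPKM in abdomen mice 1 to 4, 1.33, 0.60, 0.90 and 0.36 FPKM in back, and 0.93, 0.34, 0.66 and 0.08 FPKM in cheek. In wounds the same mice had 68.2, 27.7, 68.5 and 38.6 FPKM in abdomen, 156, 101, 109 and 153 FPKM in back, and 126, 151, 181 and 54.5 FPKM in cheek. Every wound library was therefore far above every unwounded library, and the lowest wound values were those of abdomen mice 2 and 4. The log2 fold change was 5.73 in abdomen (SE 0.27, limma adjusted p 2.36e-07), 6.68 in back (adjusted p 8.28e-08) and 6.95 in cheek (adjusted p 6.24e-08). Ccl4 was listed at 0 in unwounded abdomen mice 1 and 2 and back mice 2 and 4, and at 0.10 to 0.62 FPKM in the other 8 unwounded libraries. Its wound levels were 61.6, 22.3, 71.5 and 36.8 FPKM in abdomen, 134, 85.7, 106 and 115 FPKM in back, and 99.9, 127, 164 and 40.2 FPKM in cheek. As for Ccl3, abdomen mouse 2 was the lowest and cheek mouse 3 the highest of the wounds. Log2 fold changes of Ccl4 were 6.33, 7.23 and 6.63 in abdomen, back and cheek (SE 0.36, adjusted p 1.45e-06, 2.76e-07 and 4.53e-07). Since unwounded levels of this pair were below or near the added 0.5 FPKM, the size of these fold changes depends on it. With 0.1 FPKM added, the log2 fold changes of Ccl4 were 8.25, 8.73 and 7.42 in abdomen, back and cheek, and with 1 FPKM they were 5.41, 6.46 and 6.03, so that abdomen and cheek changed places. Those of Ccl3 were 6.62, 7.27 and 7.87 with 0.1 FPKM, and 5.10, 6.19 and 6.33 with 1 FPKM.

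Ccl2, the main Ccr2 ligand, and its neighbour Ccl7 rose at all 3 sites to similar levels. Unwounded Ccl2 levels were 6.50, 9.17, 6.06 and 7.21 FPKM in abdomen mice 1 to 4, 9.11, 4.17, 7.71 and 3.60 FPKM in back, and 7.95, 8.38, 8.34 and 2.82 FPKM in cheek. Wounds had 62.8, 32.5, 52.5 and 51.5 FPKM in abdomen, 60.0, 40.1, 115 and 35.5 FPKM in back, and 47.9, 66.7, 30.9 and 22.2 FPKM in cheek. No wound library fell within the unwounded range, and the wounds themselves were spread widely, with back mouse 3 highest and cheek mouse 4 lowest. The log2 fold change of Ccl2 was 2.68 in abdomen (SE 0.24, limma adjusted p 2.18e-05), 3.18 in back (2.15e-06) and 2.51 in cheek (1.62e-05). Ccl7 ranged from 4.30 to 12.6 FPKM in unwounded and from 28.4 to 113 FPKM in wound libraries, again without overlap. Its log2 fold changes were 2.65, 2.81 and 2.09 (SE 0.23, adjusted p 1.84e-05, 4.01e-06 and 4.92e-05).

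Ccl12, a further Ccr2 ligand, passed the test of wounding in the abdomen, while the test of a difference between the 3 sites did not pass (limma adjusted p 0.24). Unwounded abdomen had 3.59, 3.44, 7.46 and 3.33 FPKM, back 15.9, 8.83, 12.0 and 6.0 FPKM, and cheek 11.7, 10.3, 6.59 and 5.45 FPKM. Wound levels were 34.4, 12.8, 24.0 and 37.3 FPKM in abdomen, 39.9, 20.5, 49.5 and 15.97 FPKM in back, and 14.8, 27.2, 12.3 and 12.5 FPKM in cheek. Wound and unwounded libraries did not overlap at any site, but the gap was narrow in back (15.85 against 15.97 FPKM) and cheek (11.7 against 12.3 FPKM). The log2 fold change was 2.44 in abdomen (SE 0.27, limma adjusted p 0.000101), 1.45 in back (adjusted p 0.00132) and 0.91 in cheek (adjusted p 0.022). The back value passed without abdomen mouse 3 (adjusted p 0.000833), without abdomen mouse 4 (0.000731), or in the fit of the 8 back libraries alone (3.01e-05).

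Ccl8 dominated the ligand transcripts in both states and did not pass the test at any site. Unwounded levels ranged from 304 to 532 FPKM in abdomen, from 163 to 937 FPKM in back and from 367 to 820 FPKM in cheek. Wounds had 823 to 1249 FPKM in abdomen, 886 to 1396 FPKM in back and 638 to 962 FPKM in cheek, overlapping the unwounded libraries in back and cheek. The log2 fold changes were 1.13, 1.10 and 0.59 (SE 0.34, limma adjusted p 0.0239, 0.0198 and 0.19). All 12 mice nevertheless had more Ccl8 in the wound than in unwounded skin, with a mean difference of 0.94 on the log2 scale (exact sign-change test over 12 mice, two-sided p = 0.000488, the smallest this test can give). Ccr8 itself, a receptor found on T cells, had group means of 0.50 to 1.04 FPKM, and its wound log2 fold changes of -0.32, 0.46 and 0.12 did not pass (adjusted p 0.145, 0.0321 and 0.579).

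Ccl6 and Ccl9, neighbouring genes for Ccr1 ligands made by myeloid cells, were already abundant in unwounded skin and passed the test of wounding in the back. Unwounded Ccl6 levels were 80.0, 100.4, 93.0 and 77.8 FPKM in abdomen mice 1 to 4, 65.3, 80.9, 175 and 58.0 FPKM in back, and 116, 44.2, 68.0 and 56.7 FPKM in cheek. Wounds had 121, 94.2, 155 and 212 FPKM in abdomen, 325, 282, 379 and 287 FPKM in back, and 210, 145, 154 and 109 FPKM in cheek. The back wounds were all above every other library, whereas abdomen and cheek wounds overlapped with unwounded skin. Log2 fold changes of Ccl6 were 0.67 in abdomen (SE 0.24, limma adjusted p 0.0487), 1.88 in back (8.72e-05) and 1.17 in cheek (0.00281). Ccl9 ranged from 14.04 to 37.7 FPKM in unwounded skin, and from 33.3 to 76.0 FPKM in abdomen, 57.4 to 85.6 FPKM in back and 27.3 to 54.2 FPKM in cheek wounds, with overlap in cheek. Its log2 fold changes were 1.00, 1.66 and 0.96 (SE 0.22, adjusted p 0.00505, 0.000107 and 0.00524). The back call of Ccl9 was lost without back mouse 4 (adjusted p 0.00112), and the cheek value passed without abdomen mouse 4 (0.000772).

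Of the receptors, Ccr1 passed the test of wounding at all 3 sites and Ccr2 in back and cheek. The test of a difference between the 3 wound effects did not pass for Ccr2 (limma adjusted p 0.442). Unwounded Ccr1 levels were 1.62, 2.30, 2.44 and 2.65 FPKM in abdomen mice 1 to 4, 3.42, 4.49, 4.35 and 2.52 FPKM in back, and 2.83, 1.65, 1.88 and 1.55 FPKM in cheek. Wounds had 22.2, 10.02, 11.7 and 10.5 FPKM in abdomen, 32.2, 25.1, 27.9 and 22.7 FPKM in back, and 24.4, 29.3, 37.4 and 21.99 FPKM in cheek. Every wound was above every unwounded library, and 3 of the 4 abdomen wounds, at 10.02 to 11.7 FPKM, were below all other wounds. The log2 fold change of Ccr1 was 2.30 in abdomen (SE 0.24, limma adjusted p 5.58e-05), 2.73 in back (6.42e-06) and 3.54 in cheek (1.3e-06). Ccr2, the receptor that carries monocytes out of the bone marrow, ranged from 6.17 to 20.6 FPKM in unwounded skin. Its wound levels were 27.3, 37.5, 22.5 and 38.0 FPKM in abdomen, 64.6, 51.0, 40.9 and 44.1 FPKM in back, and 45.5, 54.1, 33.9 and 32.9 FPKM in cheek, without overlap at any site. Log2 fold changes of Ccr2 were 1.26, 2.09 and 1.86 (SE 0.25, adjusted p 0.00364, 7.26e-05 and 0.000236). The cheek call of Ccr2 was lost without cheek mouse 1 or without cheek mouse 4 (adjusted p 0.00122 in each case), and both of its calls were lost when each site was fitted alone (adjusted p 0.00122 in back and 0.00355 in cheek).

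A test that needs no model was applied over the 12 mice. The wound exceeded the unwounded skin in 12 of 12 mice for 9 genes (exact sign-change test, two-sided p = 0.000488 for each, the smallest possible), as it did for 14.4% of the 14423 genes tested, and in 11 of 12 for Ccl6 (exact p = 0.000977). Mean within-mouse differences on the log2 scale were 6.73 for Ccl4, 6.46 for Ccl3, 2.85 for Ccr1, 2.79 for Ccl2, 2.52 for Ccl7, 1.74 for Ccr2, 1.60 for Ccl12, 1.24 for Ccl6, 1.204 for Ccl9 and 0.94 for Ccl8. With 4 mice at each site, the same test within a site could not pass 0.05.

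The make-up of the ligand transcripts shifted with wounding. The 8 ligands summed to 675 ± 253 FPKM (SD, n = 12) in unwounded skin and to 1551 ± 328 FPKM in wounds. Ccl8 was 79.2% ± 6.96 of this sum in unwounded skin (64.9 to 88.6%) and 63.3% ± 8.81 in wounds (50.6 to 79.0%), so it remained the largest share in every library. Ccl3 and Ccl4 together were 0.125% ± 0.055 in unwounded skin and 12.5% ± 6.51 in wounds. Their wound share was 7.23% in abdomen (4.16 to 10.3%), 13.1% in back (9.12 to 16.6%) and 17.03% in cheek (7.57 to 27.4%), and these ranges overlap. The ratio of Ccr1 to Ccr2 was 0.233 ± 0.096 in unwounded skin and 0.576 ± 0.226 in wounds. In the wound of cheek mouse 3 this ratio was 1.10, the highest of the 24 libraries.

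**Figure D3:**
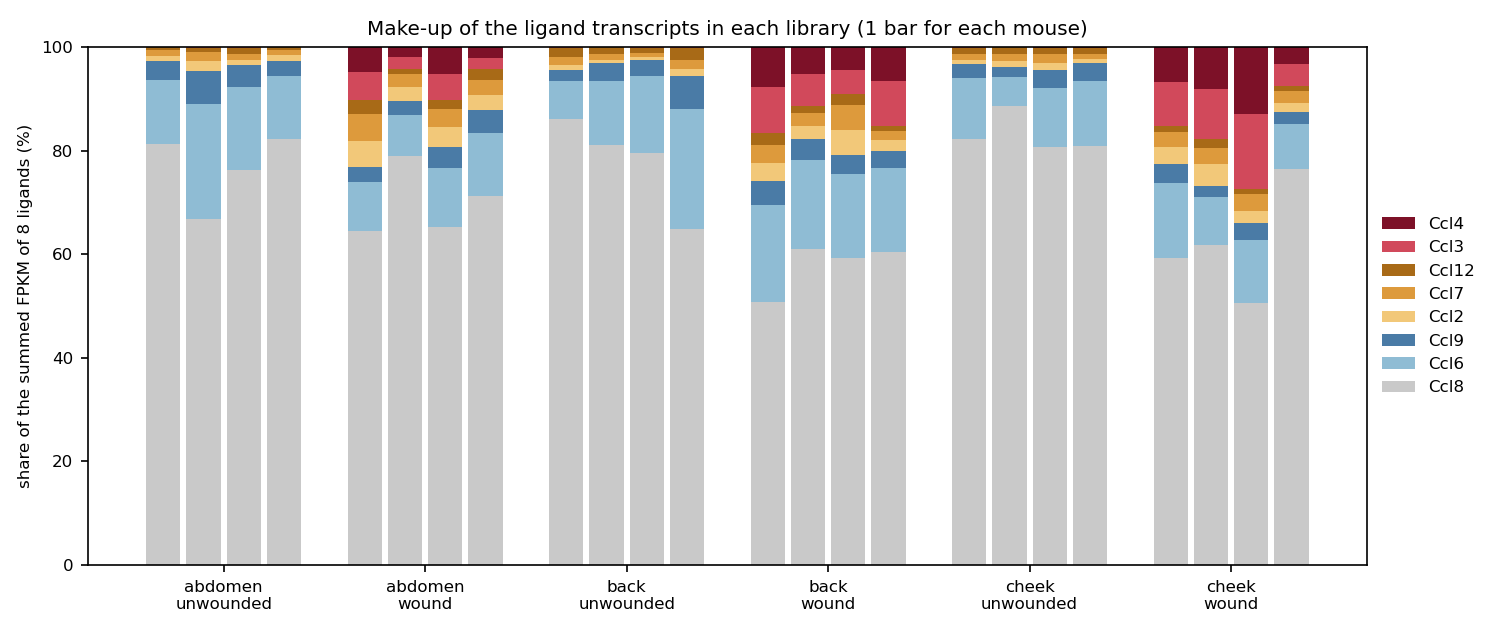
Share of each ligand in the summed FPKM of the 8 ligands (vertical axis, from 0 to 100%), with 1 bar for each library, grouped by site and state. Ccl3 and Ccl4 together are at most 0.213% of any unwounded bar and 4.16 to 27.4% of the wound bars, while Ccl8 fills 50.6% or more of every bar.

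Whether the response to wounding differed between sites was tested with a moderated F test on the 3 wound effects. None of the 10 genes passed a limma adjusted p under 0.05, against 0.0208% of all genes (3 of 14423). At an unadjusted p under 0.05 there were 1867 genes, 4 of the 10 among them. The limma adjusted p ranged from 0.24 for Ccl12 to 0.724 for Ccl8. The wound effect of Ccl12 was smaller in cheek than in abdomen by an estimated 1.53 on the log2 scale (95% interval of cheek against abdomen, -2.37 to -0.68, adjusted p over all genes 0.278). The wound effect was larger in cheek than in abdomen by 1.24 for Ccr1 (0.48 to 1.99, adjusted p 0.287), and by 1.22 for Ccl3 (0.39 to 2.04, adjusted p 0.308). The wound effect of Ccl6 was larger in back than in abdomen by 1.21 (0.47 to 1.94, adjusted p 0.162). Without abdomen mouse 1, whose wound had the most Ccr1 of its group, the F test of Ccr1 passed (adjusted p 0.0229). The number of all genes that passed then also rose, from 3 to 315 of 14381. For each of the other 6 genes the interval of at least 1 pair of sites reached beyond 1 on the log2 scale, so the responses were not shown to be alike.

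In unwounded skin no gene of the 10 was called between sites at a limma adjusted p under 0.05. The background was 2.67% of all genes for back against abdomen, 2.57% for cheek against abdomen and 1.05% for cheek against back. At an unadjusted p under 0.05 there were 2, 2 and 1 of the 10 genes, beside 3072, 2650 and 3008 of 13956 genes. The nearest to a call were Ccl12, higher in back than in abdomen by 1.17 (95% interval 0.44 to 1.89, adjusted p 0.085), and Ccr1, lower in cheek than in back, with a log2 difference of -0.76 (-1.199 to -0.32, adjusted p 0.0959). The Ccr1 difference passed with quantile normalisation (adjusted p 0.0462). Among the 30 contrasts between sites, the only groups without overlap were those of Ccl4, with 0 to 0.11 FPKM in abdomen and 0.21 to 0.62 FPKM in cheek (two-sided p = 0.0286 by exact permutation, which is the least that 4 against 4 can give, without adjustment for the 30 contrasts). Among all 13956 genes, 10.6% had cheek and abdomen libraries without overlap.

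Among wounds, 1 of the 10 genes was called in each comparison of sites, and neither call of Ccl6 was stable. Back against abdomen, 1.27% of 14023 genes were called, and of the 10 only Ccl6, higher in back by 1.18 (95% interval 0.65 to 1.71, limma adjusted p 0.044). Cheek against back, 2.50% of genes were called, and again only Ccl6, with a log2 difference of -1.07 (-1.60 to -0.54, adjusted p 0.0456). The Ccl6 levels behind these calls do not overlap: back wounds had 282 to 379 FPKM, abdomen wounds 94.2 to 212 FPKM and cheek wounds 109 to 210 FPKM. The call of back against abdomen was lost without abdomen mouse 1, 2 or 3, any back mouse, or cheek mouse 2 or 3 (adjusted p 0.0541 to 0.12). That of cheek against back was lost without abdomen mouse 1, any back mouse or any cheek mouse (0.051 to 0.141). Without the filter on low values the adjusted p were 0.0539 and 0.0518.

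Cheek against abdomen, 10.8% of all genes were called, and 1 of the 10, Ccr1, was higher in cheek by 1.07 (95% interval 0.55 to 1.59, limma adjusted p 0.0219). A share of 1 in 10 genes is close to this background. The Ccr1 call was lost without cheek mouse 2 (adjusted p 0.0553), cheek mouse 3 (0.0533) or abdomen mouse 3 (0.0631). Ccl3, with a log2 difference of 1.30 (0.44 to 2.15), was just outside (adjusted p 0.0548), and it passed without abdomen mouse 1 (0.0482) or cheek mouse 4 (0.0232). Without cheek mouse 4, whose wound had the least Ccl3 and Ccl4 of the cheek, Ccl4 passed as well (1.54, adjusted p 0.0399, from 1.12 and 0.112 with all mice).

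Back wounds were above abdomen wounds in all 10 genes, with a median log2 difference of 0.62 beside -0.03 for all genes. In 5 of them, Ccl3, Ccl4, Ccl6, Ccr1 and Ccr2, the 4 back libraries did not overlap the 4 abdomen libraries (two-sided p = 0.0286 each by exact permutation, again the least possible and without adjustment for 30 contrasts), which was the case in this direction for 3.84% of the 14023 genes tested. In the same comparison, 8 of 9 neutrophil markers (median log2 difference 0.58) were higher in back wounds. So were 12 of 15 monocyte and macrophage markers (0.30) and 11 of 14 genes of receptor signalling (0.25). T cell markers were higher in 3 of 8 (-0.13), dendritic cell markers in 4 of 7 (0.05) and mast cell markers in 4 of 7 (0.12). Outside the leukocytes, skeletal muscle markers were higher in back wounds in 7 of 7 (0.49) and endothelial markers in 5 of 5 (0.21). Fibroblast markers were higher in 4 of 7 (0.03), keratinocyte markers in 4 of 7 (0.002), red blood cell markers in 2 of 5 (-0.08) and adipocyte markers in 1 of 6 (-0.16). In cheek against abdomen wounds, 8 of 9 neutrophil markers (0.49) and 12 of 15 monocyte and macrophage markers (0.22) were likewise higher in cheek. Of the 10 genes, however, only 5 were higher in cheek than in abdomen wounds, with a median of -0.04. How the 10 genes relate to these markers was not tested. Ccr1 had a log2 difference of 1.02 between back and abdomen (95% interval 0.50 to 1.54, limma adjusted p 0.0595), which passed without abdomen mouse 1 (1.28, adjusted p 0.0102). For Ccl3 the difference was 1.42 (0.57 to 2.27, adjusted p 0.0998), for Ccl4 1.31 (0.33 to 2.28, adjusted p 0.171) and for Ccr2 0.68 (0.22 to 1.14, adjusted p 0.131). Cheek wounds were below back wounds in 9 of the 10 genes, with a median of -0.41 beside 0.09 for all genes, and Ccl9 did not overlap (-0.93, 95% interval -1.52 to -0.34, adjusted p 0.0738). Ccl6 and Ccl9 were the 2 genes of the 10 whose cheek wounds all lay below the back wounds, beside 4.06% of all genes. For Ccl2, Ccl7, Ccl8 and Ccl12 every interval between sites included 0, and those of Ccl2 ran from -1.44 to 1.11.

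**Figure D4:**
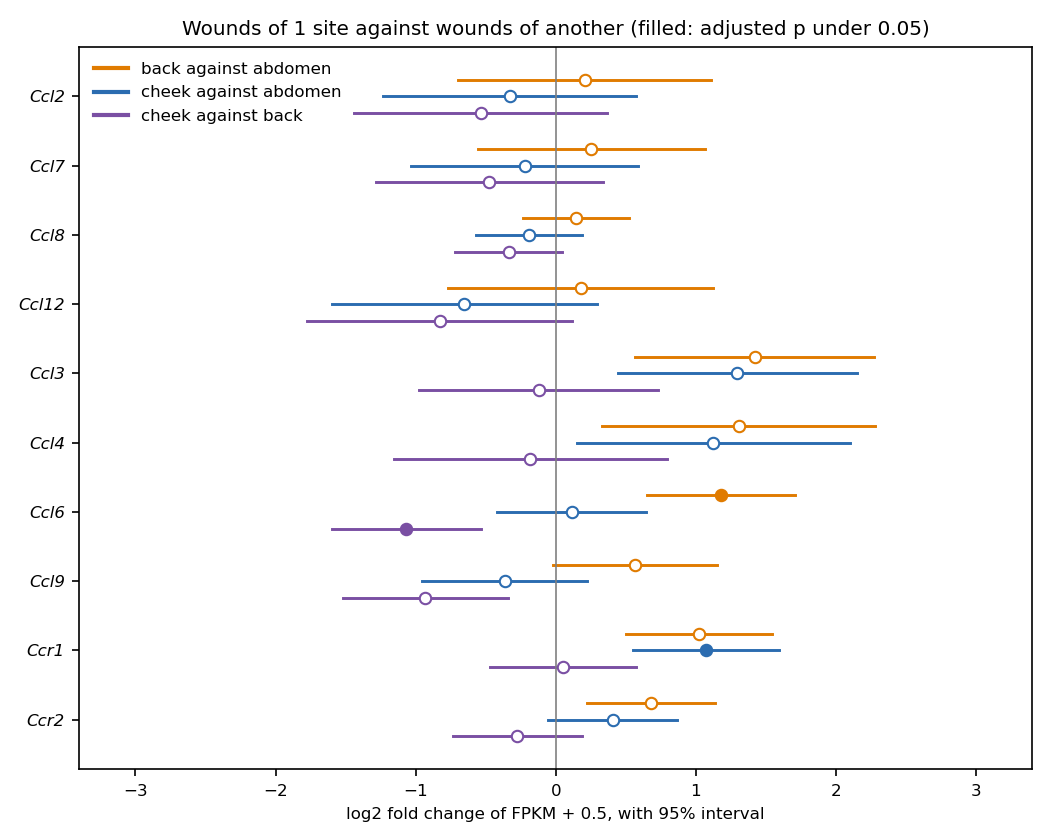
Log2 fold change of FPKM + 0.5 between wounds of different sites (horizontal axis), with the 95% interval, for the 3 pairs of sites. Filled points passed an adjusted p under 0.05. These are Ccl6 in back against abdomen (1.18) and cheek against back (-1.07), and Ccr1 in cheek against abdomen (1.07), while the intervals of Ccl2, Ccl7, Ccl8 and Ccl12 all include 0.

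Within the wounds of a site, the genes did not vary as a single block from mouse to mouse. After the mean of each site was taken away, the 12 wound libraries gave a Pearson r of 0.98 for Ccl3 and Ccl4 (Spearman rho 1.00), of 0.97 for Ccl6 and Ccl9 (0.98) and of 0.91 for Ccl2 and Ccl7 (0.92). Leaving out the 2 libraries farthest from the median of the gene named first left r at 0.96, 0.95 and 0.86. Ccl12 followed Ccl2 (r = 0.87, rho 0.80) and Ccl7 (0.87, rho 0.87). Ccl3 and Ccl4, Ccl6 and Ccl9, and Ccl2 and Ccl7 are each neighbours on the chromosome. So are Ccl12 and Ccl8, which gave r = 0.36 in the same libraries. Ccl8 ran against Ccl3 (r = -0.53, rho -0.55) and Ccr1 (r = -0.56, rho -0.49), and the receptors did not follow each other (r = -0.13, rho 0.01). In the 12 unwounded libraries Ccl6 and Ccl9 (r = 0.98) and Ccl2 and Ccl7 (r = 0.93) also varied together, whereas Ccl3 and Ccl4 gave r = 0.43 at levels near 0. The ratio of Ccl3 to Ccl4 stayed between 0.958 and 1.35 in wounds, that of Ccl2 to Ccl7 between 0.749 and 1.403, and that of Ccl6 to Ccl9 between 2.79 and 4.99. These are descriptions over 45 gene pairs in libraries that share cell make-up and scaling, and no test was made.

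**Figure D5:**
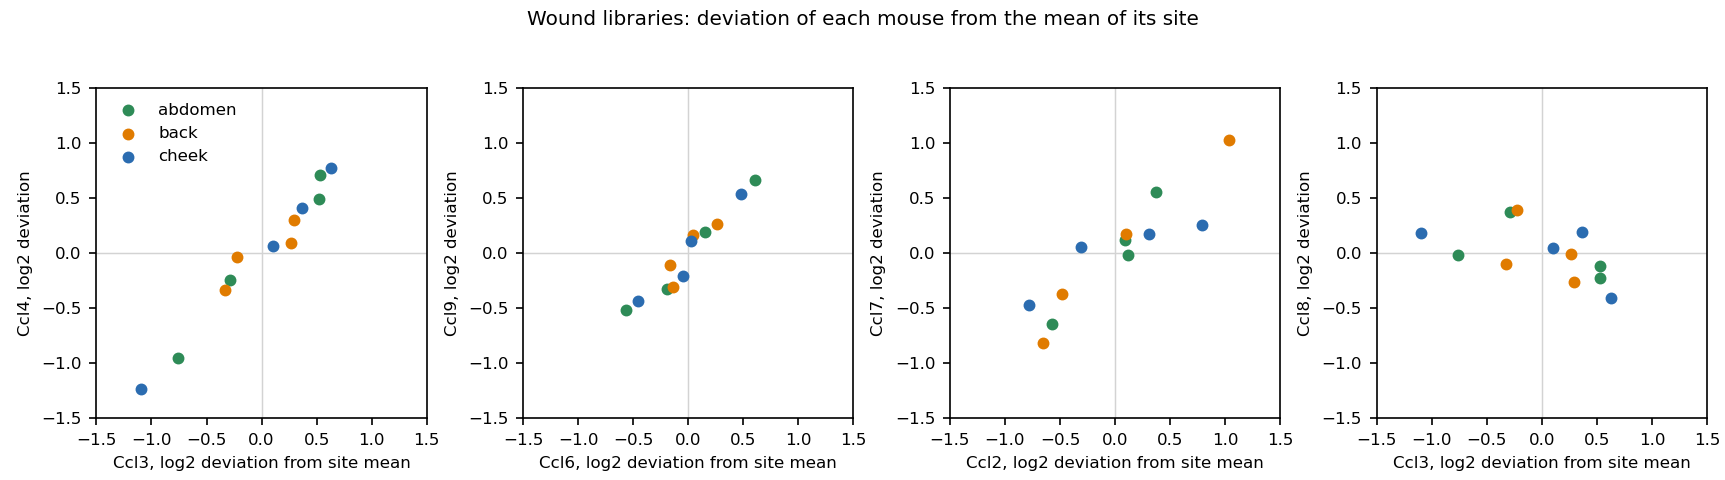
Deviation of each of the 12 wound libraries from the mean of its site, in log2 units on both axes, for 4 pairs of genes. Points of Ccl3 and Ccl4 (r = 0.98), Ccl6 and Ccl9 (r = 0.97) and Ccl2 and Ccl7 (r = 0.91) lie along a rising line, and those of Ccl3 and Ccl8 (r = -0.53) do not.

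Genes whose levels most resembled each member were listed by Pearson r of log2(FPKM + 0.5). In the 12 wound libraries after site means, Ccl3 and Ccl4 were closest to Tnf, the gene of an inflammatory cytokine (r = 0.98 and 0.97), followed for Ccl3 by Gadd45b (0.95) and Cxcl2 (0.94) and for Ccl4 by Nfkbia (0.94) and Plaur (0.94). Ccl12 was closest to Parp11 (0.98), Trim21 (0.97) and Parp9 (0.97), of which Trim21 and Parp9 are known as interferon-responsive. Ccl8 was closest to Havcr2 (0.97), Ccl2 to Clic1 (0.94), Ccl7 to Crlf2 (0.94), Ccl6 to Ppp1r9b (0.94), Ccl9 to Il10rb (0.95), Ccr1 to Srms (0.93) and Ccr2 to Mef2a (0.98). Over all 24 libraries, where r mostly follows the difference between wound and unwounded skin, the closest gene was Cxcl2 for Ccl3 and Ccl4 (0.99 for each), Nlrp3 for Ccr1 (0.98) and Dock2 for Ccr2 (0.97). The closest of all tested genes is high by selection, and no test was made.

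Of the other CC chemokines, receptors and atypical receptors, 25 of 27 listed genes were in the table and 24 were tested. In wounds 1, 3 and 2 of them were called higher at abdomen, back and cheek and 2, 1 and 1 lower, with median log2 fold changes of -0.32, 0.43 and 0.05. Ccrl2, an atypical receptor that presents chemerin, rose at all 3 sites by 2.73, 3.36 and 3.13 (SE 0.25). Ccl5, a further ligand of Ccr1, was called in back (3.02, adjusted p 0.000121) but not in abdomen (1.62, 0.00883) or cheek (2.08, 0.00179). Ccr6 was called in back (1.02, adjusted p 0.000951) and Ccr9 in cheek (1.01, adjusted p 0.000752). Both had low levels, near the added 0.5 FPKM. Mean Ccr6 was 0.235 FPKM in unwounded back and 0.99 FPKM in its wounds. Mean Ccr9 was 0.42 FPKM in unwounded cheek and 1.35 FPKM in its wounds. The other sites were much the same for Ccr9, with 0.465 and 1.36 FPKM in abdomen and 0.515 and 1.45 FPKM in back. Ccl24, an eosinophil-attracting ligand of Ccr3, fell in abdomen and cheek, with log2 fold changes of -1.52 and -1.49 beside -0.42 in back (adjusted p 0.000304, 0.000232 and 0.121). Ackr2, which binds and removes inflammatory CC chemokines, fell in abdomen and back (-0.94 and -0.93, adjusted p 0.000713 and 0.000376) and had -0.64 in cheek (0.00596). The homeostatic chemokines Ccl19, Ccl21a, Ccl27a and Ccl28 were called at no site. Between sites in unwounded skin, Ccl20 (-1.68, adjusted p 0.0287), Ccl5 (-1.57, 0.0287) and Ackr4 (-0.62, 0.0439) were lower in back than in abdomen, and Ccl20 was lower in cheek than in abdomen (-1.70, 0.0313). Ccl11, a ligand that attracts eosinophils, was higher in unwounded cheek than in back (1.09), at the very edge of the threshold (adjusted p 0.05 after rounding). Ccl11 was also higher in cheek than in abdomen wounds (0.97, adjusted p 0.0293).

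Genes of signalling downstream of these receptors and of leukocyte chemotaxis were called higher in 7, 12 and 10 of 14 at abdomen, back and cheek. Among them the formyl peptide receptor genes Fpr1 (3.23, 3.51 and 3.08) and Fpr2 (3.13, 3.14 and 2.59) and the Src-family kinase gene Fgr (1.88, 2.56 and 2.46) had the largest rises at all 3 sites. Of 15 tested genes of cytokines and factors that induce CC chemokines, 3, 8 and 4 were called higher, including Il1b (5.51, 7.11 and 6.39) and Tnf (1.84, 3.52 and 3.49) at all sites. No gene of either list was called lower in wounds.

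Many markers of the cells that carry these receptors moved with the wound in the same libraries. Of 15 monocyte and macrophage markers, 7, 10 and 10 were called higher, led by Cd14 (3.21, 3.75 and 4.22), Fcgr1 (2.82, 2.38 and 2.13) and Chil3 (2.53, 2.2 and 2.32). The log2 fold change was positive in 11, 13 and 12 of the 15, and the lowest were -1.04, -0.42 and -0.65. The summed level of the 15 markers was 605 to 1182 FPKM in unwounded skin and 1546 to 2761 FPKM in wounds. Of 9 neutrophil markers tested, 7, 8 and 8 were called higher, led by S100a9 (6.23, 6.45 and 7.54), S100a8 (5.55, 7.17 and 6.19) and Stfa2l1 (5.07, 6.42 and 5.30). Summed over all 10 neutrophil markers listed, the level was 8.66 to 37.8 FPKM in unwounded skin and 360 to 2450 FPKM in wounds. In unwounded skin Cxcr1 was at 0 in all 12 libraries and Ly6g at 0 in those of abdomen and back. Among T cell markers, 0, 1 and 1 of 8 were called higher and 0, 1 and 0 lower, and their sum was 19.8 to 54.3 FPKM in unwounded skin and 27.2 to 44.4 FPKM in wounds. Between wounds, the neutrophil gene Mmp8 was higher in back (1.08, limma adjusted p 0.0474) and cheek (1.11, 0.0173) than in abdomen, and Csf3r was higher in cheek than in abdomen (1.01, 0.0465). Ccl6 was called in the first of these comparisons and Ccr1 in the second, while no neutrophil marker was called in cheek against back, the other comparison with a call of Ccl6. Skeletal muscle genes moved the other way: all 7 had a negative log2 fold change in wounds at every site, with medians of -0.72, -2.25 and -1.78 at abdomen, back and cheek, although none was called. Their sum was 14141 to 22424 FPKM in unwounded back against 3192 to 4546 FPKM in its wounds, and 11884 to 24079 against 4942 to 6888 FPKM in cheek, without overlap, whereas in abdomen the ranges overlapped (507 to 15401 against 1693 to 5272 FPKM). The part of leukocytes and muscle in the levels of the 10 genes was not tested.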

How the data were processed

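Total RNA of 2 mm skin punches was sequenced by a service provider (BGISEQ-500, paired reads of 100 bases). Per the study's methods and the submitters' processing notes, reads were aligned with HISAT2 and Bowtie2 (2.2.5) to mm10 and quantified with RSEM (1.2.12), and the authors deposited FPKM per gene, rounded to 2 decimals, with no further scaling between libraries. The other deposited table holds fold changes on the log2 scale with adjusted p-values, made by the authors with DESeq2, and it was not used. FPKM keeps no read count, so depth and counting error are unknown and the precision rests on 4 mice per group.

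Values were transformed to log2(FPKM + 0.5), which understates the change of low genes. A gene entered a fit when 4 or more of its libraries reached 0.5 FPKM, and was tested with limma (3.58.1, R 4.3.3, trend and robust moderation) and Benjamini-Hochberg adjustment over all such genes, and all 10 members passed in each fit: 14423 genes in the 24-library fit, 13956 in unwounded skin and 14023 in wounds. Wound effects were fitted with mouse as a factor of 12 levels (adjusted p under 0.001), since wound and unwounded library of a mouse share the animal. Their deviations from group means had mean correlations of 0.322, 0.348 and 0.281 at abdomen, back and cheek. Between different mice the values were -0.108, -0.116 and -0.0958. Deviations from a mean of 4 cancel out, so these negative values largely follow from the first ones and are no separate baseline. Sites were compared within 12 libraries without blocks (adjusted p under 0.05). Exact tests were two-sided sign changes over 12 mice and permutations of 4 against 4. The scripts were tested on simulated data. Promoters came from RefSeq tables and positions from GENCODE M21. Named genes were the 10 members, any other gene of the CC chemokine axis, and of each other list the 3 with the largest mean change among those called at all 3 sites, and those called between sites. Members and lists were chosen with earlier results of these data known. A gene of the list of other CC chemokines and receptors is not reported here. Alternatives were other pseudocounts, filters, scalings, moderation, pairing and samples in the fit, and each mouse left out in turn.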

Additional observations from a re-analysis of the deposited data

Results flagged for a closer look

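In 60 groups of 4 libraries (10 genes, 6 groups), the highest or lowest library was set against the others by Dixon's ratio of its gap to the range, at the 95% critical value. By chance about 1 in 20 such groups would stand out, and 5 of 60 stood out. In unwounded cheek, mouse 4 was lowest for Ccl2 (2.82 FPKM) and for Ccl7 (4.73 FPKM), the neighbouring ligands of Ccr2. For Ccl12 a high library stood out in unwounded abdomen (mouse 3, 7.46 FPKM) and in cheek wounds (mouse 2, 27.2 FPKM). The abdomen wound of mouse 1 stood out for Ccr1 (22.2 FPKM), and its neutrophil markers also had the highest sum of all wounds (2450 FPKM), a link that was not tested.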

How the results depend on the processing

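No called result changed direction under an alternative that was run, and of 100 results on single members 83 kept their side of the threshold under every alternative run. Counts of members called in wounds changed from 6 to 2 in abdomen in separate fits of the 8 libraries of a site, and ranged from 6 to 6, 7 to 9 and 5 to 7 in abdomen, back and cheek as each mouse was left out. Without the replicate block of mice they stayed at 6, 8 and 6. The test of a difference between wound effects went from 0 to between 0 and 1 members as mice were left out, and in unwounded skin cheek against back went from 0 to 1 with quantile normalization. Among wounds, back against abdomen went from 1 to 0 with no filter, with no trend or robustness, with the mouse number as a replicate block, and with all 24 libraries and mouse as a random effect (0 to 1 as mice were left out). Cheek against back went from 1 to 0 with no filter, with quantile normalization, with the replicate block and with the random effect (0 to 1), and cheek against abdomen from 1 to 2 with quantile normalization and with the random effect (0 to 3). Mouse numbers do not pair mice across sites (mean correlations of -0.174 to 0.018), so that the block there is no better design. The cause of these changes was not tested.

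Counts over all genes moved more. With separate fits by site, 67 genes were called in abdomen in place of 715 and 248 in cheek in place of 1254. Leaving out mice gave 293 to 833 in abdomen, 910 to 2322 in back (2074 with all mice) and 543 to 1503 in cheek, and 1 to 315 for the F test, which gave 1 to 9 under other settings in place of 3. In unwounded skin the random effect gave 1503, 1272 and 1036 genes in place of 373, 358 and 147 (back against abdomen, cheek against abdomen, cheek against back), the mouse number as a block 206 for the first and 91 for the last of these pairs, median-ratio scaling 209 for back against abdomen, and left-out mice 109 to 543, 81 to 693 and 73 to 154. Among wounds back against abdomen had 178 genes, and 106 without trend and robustness, 28 with the block and 64 with the random effect (22 to 285 without mice). Cheek against abdomen had 1519, and 803 with the random effect (508 to 1703), and cheek against back 351, and 182, 160, 120 and 130 with median-ratio scaling, quantile normalization, block and random effect (48 to 1095). Scaling also moved the split of higher and lower calls, where the median of all genes was -0.12 in unwounded back against abdomen and 0.14 in unwounded cheek against back without scaling. Quantile normalization gave 498 and 307 in abdomen (from 565 and 150), 1075 and 989 in back (from 1443 and 631) and 855 and 515 in cheek (from 938 and 316). In unwounded skin median-ratio scaling gave 80 and 129 for back against abdomen (from 74 and 299), 104 and 174 for cheek against abdomen (from 186 and 172) and 38 and 119 for cheek against back (from 78 and 69), and quantile normalization 142 and 282 and 33 and 109 for the last pairs. In wounds they gave 664 and 738, and 736 and 692, for cheek against abdomen (from 1054 and 465) and 74 and 108, and 81 and 79, for cheek against back (from 267 and 84). Median-ratio scaling gave 76 and 76 for back against abdomen (from 71 and 107).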

Other observations

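Other cell types of the punches were described by marker lists. In wounds, keratinocyte genes were called higher in 2, 2 and 2 of 7 at abdomen, back and cheek, with Krt14 (1.54, 1.99 and 1.94) and Krt1 (1.47, 1.45 and 1.90) called at all 3 sites, and 1 was called lower in abdomen. Endothelial genes were called higher in 1, 3 and 2 of 5, with Cdh5 called throughout (0.87, 0.64 and 0.71). Dendritic cell genes were called higher in 1, 2 and 1 of 7, with Itgax called throughout (1.17, 1.71 and 1.74). Fibroblast genes were called higher in 0, 0 and 1 of 7 and lower in 0, 1 and 0, and mast cell genes higher in 0, 1 and 1 of 7. Of 6 adipocyte genes 3 were called lower in back. None of 5 red blood cell genes was called at any site, with median log2 fold changes of 0.17, -0.36 and 0.25.

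Between wounds of cheek and abdomen, 3 muscle genes (Acta1, Atp2a1 and Myh4) and 3 mast cell genes (Cpa3, Kit and Tpsab1) were called higher in cheek, and the T cell gene Cd3e was called lower, with a log2 difference of -1.05 (limma adjusted p 0.00881). Pdgfra, a fibroblast gene (0.60, adjusted p 0.0295), Tek, an endothelial gene (0.57, 0.0353), and Pik3cg, of receptor signalling (0.61, 0.0227), were also higher in cheek wounds, and Cebpb, of the inducers, was lower (-0.57, 0.0339). In unwounded skin, the inducer list's Nfkbia was lower in back than in abdomen (-0.62, adjusted p 0.0484), and the adipocyte gene Retn was lower in cheek than in abdomen (-1.93, 0.0204).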
